A study of Mus musculus with 6 samples.

Results

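The respiratory chain genes encoded in the nucleus were followed in mouse bone marrow progenitors in which Rad21, a subunit of the cohesin ring, was targeted by shRNA. Members were chosen by symbol: Nduf with the letter a, b, c, s or v and a number, Uqc, Cox4 to Cox8, Sdha to Sdhd, and Atp5. This gave 81 of the 12393 genes measured, 33 of complex I, 4 of complex II, 11 of complex III, 16 of complex IV and 17 of complex V. The rule also takes in the complex III assembly genes Uqcc1, Uqcc2 and Uqcc3 and the supercomplex gene Cox7a2l. Marrow depleted of lineage-positive cells, from C57/BL6 animals 6 to 8 weeks old, received an empty lentivirus (empty vector), Rad21 shRNA1 or Rad21 shRNA2, with 2 Affymetrix arrays per group. All groups alike were exposed to virus for 24 h with polybrene on retronectin, selected with 1 µg/mL puromycin, sorted for live cells, plated at 10000 cells/mL in methylcellulose with cytokines and collected after 7 days. The control was a virus without an shRNA, not one with a non-targeting shRNA. Whether the arrays of a group stem from separate animals or cultures is not stated, so the p-values reflect array-to-array spread, possibly technical only.

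The respiratory chain sits in the inner mitochondrial membrane. Complexes I and II take electrons from NADH and succinate and pass them through ubiquinone to complex III, cytochrome c carries them on to complex IV, which reduces oxygen, and complex V, the ATP synthase, uses the proton gradient to make ATP. Most subunits are encoded in the nucleus and imported. Their genes often carry sites for NRF1, for ETS factors of the GABP kind, for YY1 or for oestrogen-related receptors near the start, and colony-forming progenitors draw on both glycolysis and respiration as they mature.

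RefSeq promoters of assembly GRCm38.p6 were found for 67 members and for 9882 of all genes tested. Sites were read as exact letters on both strands from 250 bases before to 50 after an annotated start, counting a gene if any of its promoters held one. The NRF1 letters GCGCATGC stood in 9 members, or 13.4%, against 5.01% of all genes. The YY1 letters AAGATGGC stood in 10 members, or 14.9%, against 4.39%. The ERR letters AAGGTCA were in 8, or 11.9%, against 4.35%, and the ETS letters CCGGAAGT in 5, or 7.46%, against 7.24%. The first is nearly its own reverse, so that it and its reverse strand can overlap. The median GC content was 58.0% for members' promoters and 59.0% for all. Members with the NRF1 letters had a median difference between groups of 0.29 and those without 0.073. The same medians were 0.15 and 0.080 for the ETS letters, 0.14 and 0.081 for YY1 and -0.026 and 0.12 for ERR, all given as a description with no test.

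The 250 bases before the start are shown for a pair of complex IV isoforms, the widely used Cox6b1 and the testis isoform Cox6b2, because the largest negative difference among members was that of Cox6b2. Cox6a1 and Atp5g2 are shown as members with the NRF1 letters. Capitals mark any of the searched letters. Cox6b1 lies at chr7:30626115-30626364 on the minus strand, Cox6b2 at chr7:4753095-4753344 (minus), Cox6a1 at chr5:115348959-115349208 (minus) and Atp5g2 at chr15:102671048-102671297 (minus).
Cox6b1: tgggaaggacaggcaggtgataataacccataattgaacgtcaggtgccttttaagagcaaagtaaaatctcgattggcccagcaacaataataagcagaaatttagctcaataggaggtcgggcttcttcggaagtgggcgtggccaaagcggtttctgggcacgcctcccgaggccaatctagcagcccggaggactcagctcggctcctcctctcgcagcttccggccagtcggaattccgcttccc
Cox6b2: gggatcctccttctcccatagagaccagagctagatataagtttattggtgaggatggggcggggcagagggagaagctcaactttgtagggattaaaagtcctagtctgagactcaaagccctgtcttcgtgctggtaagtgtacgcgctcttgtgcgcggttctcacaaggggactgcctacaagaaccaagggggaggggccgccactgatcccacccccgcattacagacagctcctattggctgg
Cox6a1: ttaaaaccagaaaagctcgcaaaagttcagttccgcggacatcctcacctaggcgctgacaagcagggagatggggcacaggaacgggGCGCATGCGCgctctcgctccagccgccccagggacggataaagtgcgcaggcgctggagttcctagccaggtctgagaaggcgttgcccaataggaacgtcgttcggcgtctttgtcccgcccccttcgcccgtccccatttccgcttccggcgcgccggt
Atp5g2: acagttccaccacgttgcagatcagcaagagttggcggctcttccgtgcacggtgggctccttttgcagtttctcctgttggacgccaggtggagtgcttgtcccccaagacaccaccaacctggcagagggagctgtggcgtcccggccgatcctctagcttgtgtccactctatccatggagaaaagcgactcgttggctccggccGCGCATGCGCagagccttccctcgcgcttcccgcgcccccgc

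In Cox6a1 and Atp5g2 the NRF1 letters on both strands overlap in a single run of capitals, and neither Cox6b window holds any searched letters. In the 3 pairs with both sequences, the isoform of restricted tissue use had fewer CpG pairs in these 250 bases than its widely used partner. Cox6b2 had 8 against 14 for Cox6b1, Cox7a1 had 4 against 14 for Cox7a2, and Cox8b had 1 against 11 for Cox8a. These counts describe the reference sequence only.

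The depletion and the control arrays set what can be read. Rad21 stood at 11.14 and 10.49 (log2 intensity) with empty vector, 9.63 and 9.14 under shRNA1, and 9.50 and 9.11 under shRNA2, lower on every shRNA array. The difference was -1.47 ± 0.26 (log2, ± limma standard error, n = 4 and 2 arrays), or 36.0% of control, with a limma adjusted p of 0.0558 that misses the threshold of 0.05. Array medians lay between 100.2 and 104.9. Empty-vector replicate 1 stood apart: its Gapdh control probe sets read 2.42 log2 units higher at the 3′ than at the 5′ end, against -0.078 to 0.017 on the other 5 arrays. The Actb gap was 2.55, against 0.22 to 0.33. Summed intensities of 19 erythroid markers were 18447 on that array, 6815 on the other control and 5518 to 6331 on the shRNA arrays, and 0 of them passed. Those of 16 neutrophil markers were 44021 and 30405 on the controls and 72103 to 95176 with shRNA, and 6 of them rose. Those of 13 mast cell and basophil markers were 42975 and 57956 against 25405 to 35206, with 3 falling, and of 9 megakaryocyte markers 20947 and 18921 against 7996 to 15125, with 1 falling. Over all genes tested 91 rose and 173 fell by limma, together 2.13%. RMA gives no marker a value of 0, and the part of these cell types in the results below was not tested. In such bulk samples fewer cells of a type and less RNA per cell cannot be told apart. Among the markers of other cells, the macrophage sum (17 genes, 1 rose and 2 fell) ran from 33538 to 60903, eosinophils from 5762 to 14308 and stroma from 595 to 728. The T and NK cell sum was 8275 and 9531 on the controls against 4619 to 7239 with shRNA, and the B cell sum 534 and 500 against 314 to 347, with 1 B cell marker falling and 0 passing for T and NK cells, eosinophils and stroma.

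With Rad21 targeted by either shRNA, no respiratory chain gene rose or fell by limma. Of 81 members 0 passed at an adjusted p of 0.05, where 264 of all genes, or 2.13%, did, and the smallest adjusted p was 0.121. At an unadjusted p under 0.05 there were 10 members, 7 higher and 3 lower, against 16.7% of all genes. The median difference of the members was 0.081 on the log2 scale, with 48 positive and 33 negative, beside a median of -0.023 over all genes. Of the members, 65 differed by less than 0.5 and 3 by more than 1. The 95% limma interval lay within ±1 for 60 members and within ±0.5 for 33, with a median distance of 0.37 from the estimate to either bound. For the other 21 members the interval reaches past a 2-fold change in at least 1 direction, so a change of that size remains possible for them.

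**Figure D1:**
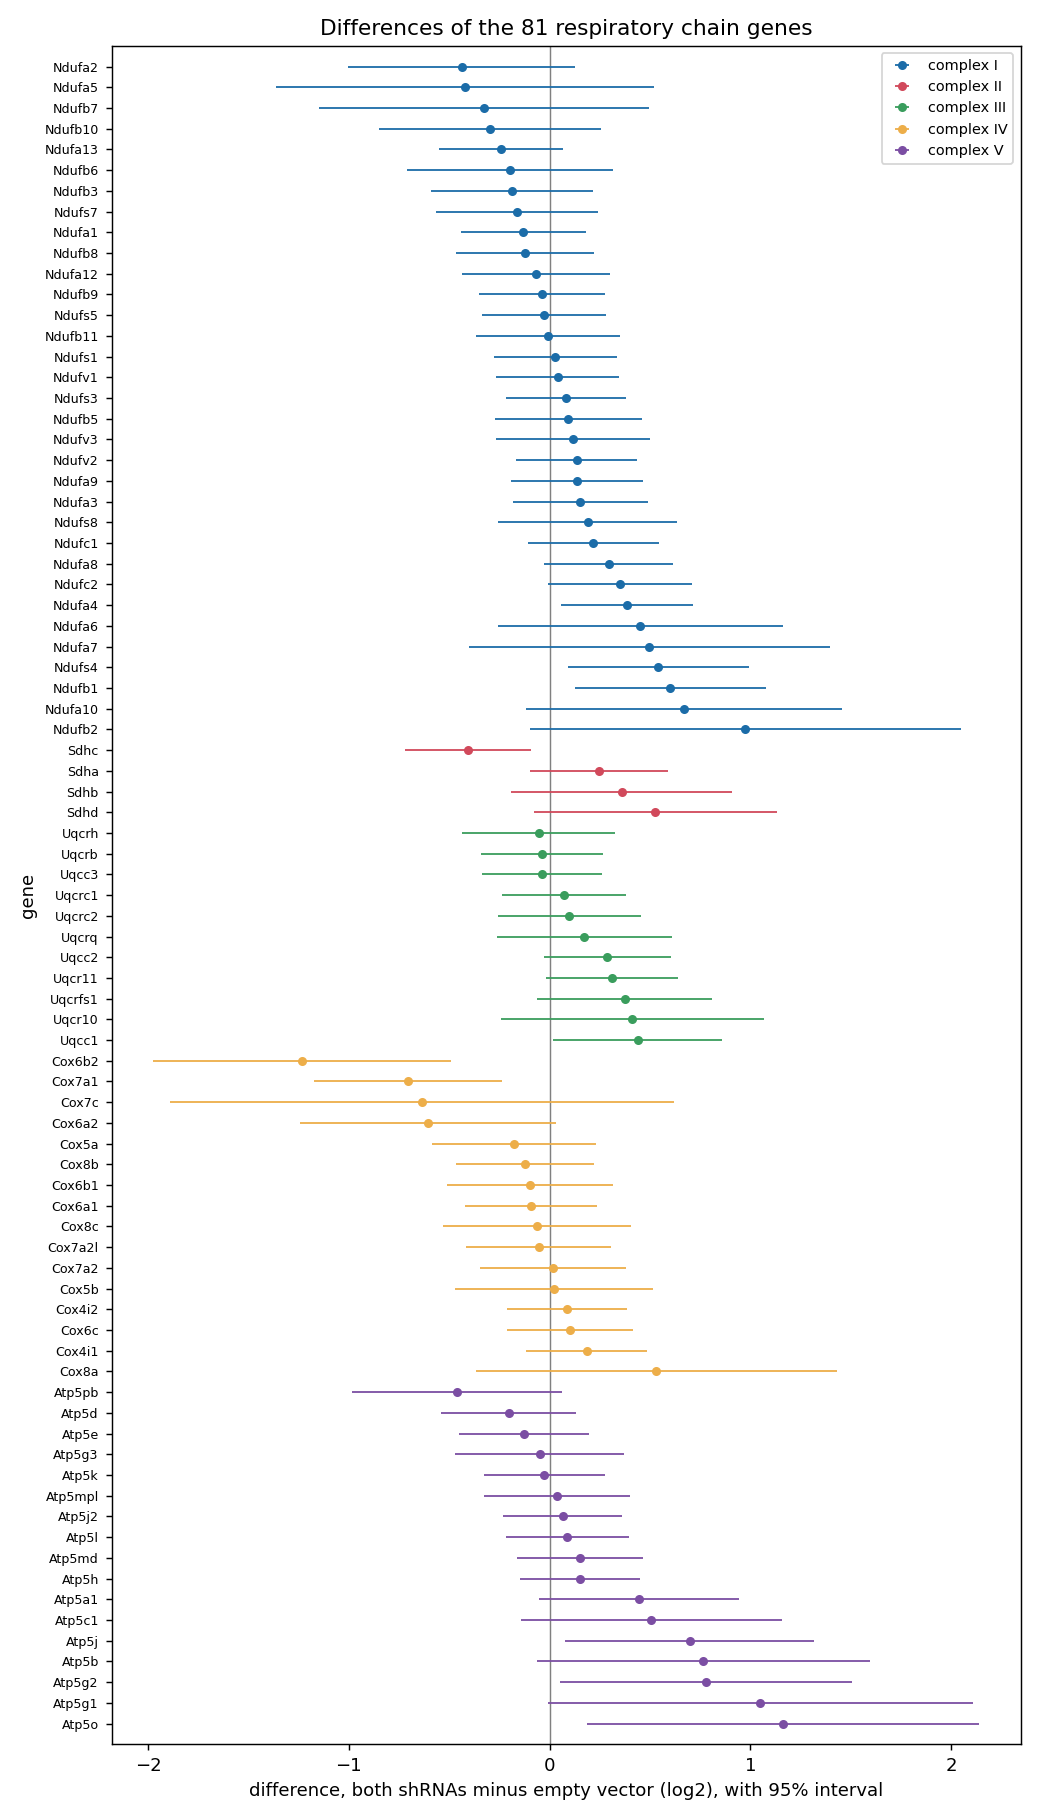
Difference of each of the 81 respiratory chain genes (rows, grouped by complex and ordered within it), both shRNAs minus empty vector on the log2 scale (horizontal axis). Points are limma estimates from 4 and 2 arrays and bars are 95% intervals; 10 of 81 intervals exclude 0 before adjustment, and the differences run from -1.23 (Cox6b2) to 1.16 (Atp5o).

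The members' values were close together on the 4 shRNA arrays, with a median range of 0.15 per gene, against 0.33 for all genes tested. Replicates differed by more than 0.5 in 1 member with shRNA1 and in 0 with shRNA2, but in 26 between the empty-vector arrays, replicate 1 being lower in 17 and higher in 9. The last count is 32.1% of members, near the 33.6% of all genes, while for shRNA1 and shRNA2 the shares over all genes were 7.67% and 6.46%. Empty-vector replicate 1 was the outermost of the 6 arrays in 69 members, or 85.2%, against 60.0% of all genes, lowest in 37 and highest in 32. Empty-vector replicate 2 lay within the range of the shRNA arrays in 25 members, or 30.9%, against 44.3% of all genes. The cause of the spread was not tested.

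**Figure D2:**
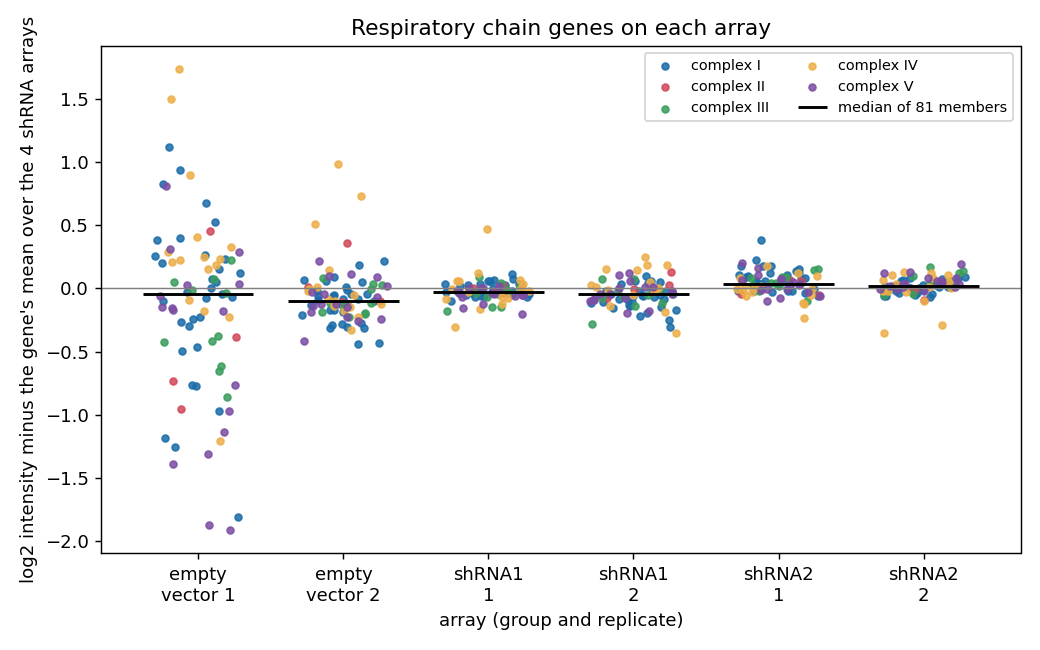
Log2 intensity of each member minus that gene's mean over the 4 shRNA arrays (vertical axis) on each of the 6 arrays (horizontal axis), coloured by complex; black lines are medians of the 81 members. Points on empty-vector replicate 1 spread from -1.91 to 1.74, those on replicate 2 from -0.44 to 0.98.

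With replicate 2 as the only control array, none of 81 members passed by limma (0, where 5.24% of all genes did), and 78 differed by less than 0.5, against 83.3% of all genes. The median was then 0.100, with 59 positive. With replicate 1 as the only control, 18 members rose and 9 fell, where 25.2% of all genes passed in either direction. In both fits the lone control array is assumed to vary like the other groups. The 27 members that passed did so only in the fit that kept the control array with the Gapdh and Actb gaps and left out the other.

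**Figure D3:**
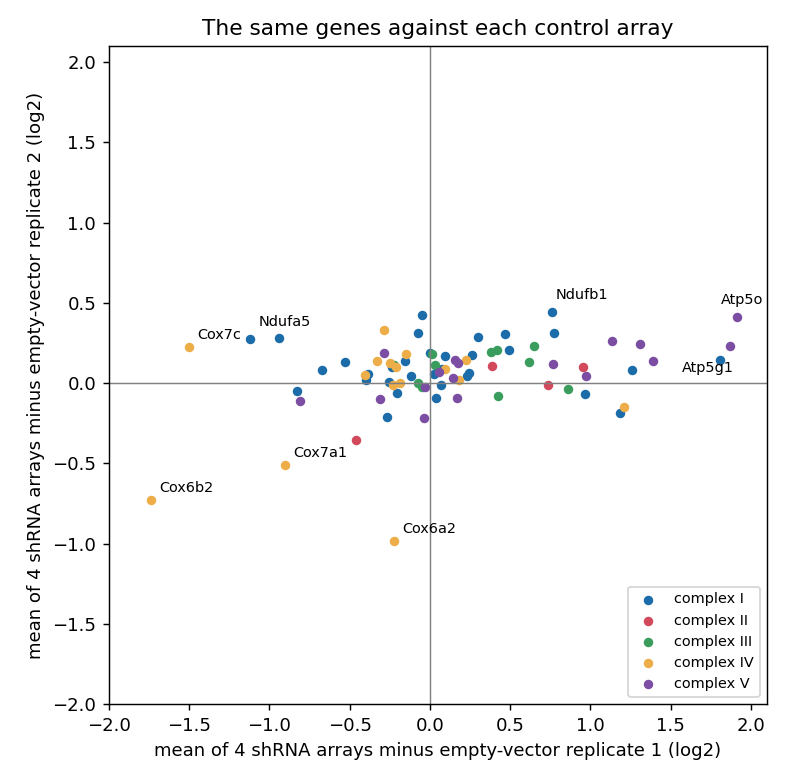
Mean of the 4 shRNA arrays minus empty-vector replicate 1 (horizontal axis) and minus replicate 2 (vertical axis), log2, for each member, coloured by complex. The horizontal differences run from -1.74 to 1.91 and the vertical ones from -0.98 to 0.44; 13 members lie below 0 on both axes, among them Cox6b2, Cox7a1 and Cox6a2, and 35 lie above 0 on both.

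Values without overlap between the groups were more often high than low. In 27 members all 4 shRNA arrays lay above both empty-vector arrays, or 33.3%, against 11.5% of all genes, and in 8, or 9.88%, they lay below, against 13.6%. Complex V, with 17 members, held 10 of the 27, and complex I, with 33 members, another 10. Some of these distances were short: Atp5j2 differed by 0.065, Ndufs3 by 0.081 and Atp5l by 0.088, all 3 chosen after their values were seen.

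Complex I takes electrons from NADH through a flavin and a chain of iron-sulphur clusters. Its 33 members had a median difference of 0.081, with 19 positive and 0 passing by limma. Among the core subunits, chosen after their values were seen, Ndufv1, which binds the flavin, differed by 0.040 ± 0.13, Ndufs1 by 0.029 ± 0.12 and Ndufs3 by 0.081 ± 0.12. Their 95% limma intervals lay between -0.28 and 0.38. Over its probe sets the difference of Ndufv1 ran from 0.040 to 0.50. The other core subunits measured, Ndufs7, Ndufs8 and Ndufv2, differed by -0.16, 0.19 and 0.13. Over their probe sets these ran from -0.16 to 0.25, from -0.074 to 1.11 and from -0.36 to 0.13. The accessory subunit Ndufb1 had the smallest p of this complex. It stood at 7.01 and 7.33 with empty vector, 7.74 and 7.47 under shRNA1, and 8.16 and 7.73 under shRNA2. All 4 shRNA arrays lay above the controls, and the difference was 0.60 ± 0.19 (limma adjusted p = 0.208).

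Ndufs4, an accessory subunit that helps to join the NADH-binding module, stood at 8.41 and 8.88 on the controls, 9.30 and 9.05 under shRNA1, and 9.27 and 9.13 under shRNA2. Its shRNA arrays were all above the controls, by 0.54 ± 0.18 (limma adjusted p = 0.226), and by 0.31 against replicate 2 alone, while its other probe sets differed by 1.11 and -0.27. Ndufb2, an accessory subunit of the membrane arm, stood at 8.39 on empty-vector replicate 1 and at 10.05 on replicate 2, with shRNA arrays between 10.08 and 10.30. Its difference of 0.98 ± 0.44 (limma adjusted p = 0.340) was 0.14 against replicate 2 alone. Ndufa5 and Ndufb7, also accessory, went the other way. They stood at 10.70 and 12.05 on empty-vector replicate 1 and at 9.31 and 10.83 on replicate 2, with differences of -0.42 ± 0.38 and -0.33 ± 0.33 that became 0.28 and 0.28 against replicate 2 alone. Their other probe sets differed by 0.016 and 0.050.

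Ndufa4 was first assigned to complex I by name and is now known as a subunit of complex IV. By its symbol it is counted here among the 33 members of complex I. It stood at 10.85 and 11.01 on the controls, 11.25 and 11.12 under shRNA1, and 11.49 and 11.40 under shRNA2. The control arrays were close to each other, and every shRNA array was above them. The difference was 0.39 ± 0.13 (limma adjusted p = 0.233), and 0.31 without empty-vector replicate 1.

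Complex II, succinate dehydrogenase, also serves the TCA cycle and is built of 4 nuclear genes, all measured. Their median difference was 0.30 and 0 passed by limma. Sdhc, a membrane anchor, stood at 9.65 and 9.54 on the controls, 9.19 and 9.32 under shRNA1, and 9.14 and 9.10 under shRNA2, below both controls on every shRNA array. The difference was -0.41 ± 0.13 (limma adjusted p = 0.199) and -0.36 without empty-vector replicate 1. Its other probe set differed by -0.076. Sdhd, the partner anchor, stood at 9.86 and 10.71 on the controls and between 10.76 and 10.84 on the shRNA arrays, a difference of 0.53 ± 0.25 (limma adjusted p = 0.357) that was 0.10 against replicate 2 alone. Its other probe set differed by -0.12. The flavoprotein Sdha differed by 0.25, and by 0.031 on its other probe set. It stood at 10.33 and 10.61 on the controls and between 10.64 and 10.78 with shRNA. The iron-sulphur subunit Sdhb differed by 0.36. It stood at 10.07 on empty-vector replicate 1 and at 10.82 on replicate 2, inside the shRNA range of 10.77 to 10.86. The 4 genes did not share a direction in the main fit, and none passed.

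Complex III passes electrons from ubiquinol to cytochrome c. Its 11 members ranged from -0.055 to 0.44, with a median of 0.17 and 0 passing by limma. Uqcc1, an assembly factor, stood at 6.28 and 6.70 on the controls, 6.89 and 6.65 under shRNA1, and 7.08 and 7.10 under shRNA2. The shRNA1 arrays overlapped the controls, and the difference was 0.44 ± 0.17 (limma adjusted p = 0.281), or 0.23 against empty-vector replicate 2 alone. Its other probe set differed by -0.084. Uqcr11, a small subunit, stood at 10.37 and 10.59 on the controls, 10.64 and 10.71 under shRNA1, and 10.88 and 10.93 under shRNA2. It was above the controls on all shRNA arrays, by 0.31 ± 0.13 (limma adjusted p = 0.323), or 0.20 against replicate 2 alone. The core subunits Uqcrc1 and Uqcrc2, chosen after their values were seen, differed by 0.073 ± 0.13 and 0.098 ± 0.15. The other probe set of Uqcrc2 differed by 0.39, and the iron-sulphur subunit Uqcrfs1 by 0.37.

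Complex IV, cytochrome c oxidase, reduces oxygen and exchanges some of its subunits between tissues. It had the only negative median of the 5 complexes, -0.078 over 16 members by symbol, Ndufa4 not included. Of these, 10 were negative and 0 passed by limma, and the median was 0.067 with empty-vector replicate 1 left out. The 3 members of this complex that were lower on all shRNA arrays, Cox6b2, Cox7a1 and Cox6a2, are isoforms best known from other tissues. The testis isoform Cox6b2 stood at 7.49 and 6.48 on the controls, 5.59 and 6.01 under shRNA1, and 5.63 and 5.79 under shRNA2. Every shRNA array was below both controls, which themselves differed by 1.01. The difference was -1.23 ± 0.30, the largest negative one among the members (limma adjusted p = 0.121), and -0.73 without empty-vector replicate 1 (adjusted p = 0.110).

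Cox7a1, an isoform of heart and skeletal muscle, stood at 6.31 and 5.92 on the controls, 5.53 and 5.56 under shRNA1, and 5.49 and 5.06 under shRNA2, again without overlap. Its difference was -0.70 ± 0.19 (limma adjusted p = 0.152) and -0.51 without empty-vector replicate 1. Cox6a2, another muscle isoform, stood at 6.16 and 6.92 on the controls and between 5.63 and 6.12 on the shRNA arrays. It differed by -0.60 ± 0.26 (limma adjusted p = 0.322), and here the larger distance, -0.98, was to empty-vector replicate 2 (adjusted p = 0.0641). All 3, with Cox4i2, Cox8b and Uqcc1, make up the 6 members whose mean lay below the median of all gene means, 7.18.

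For the widely used partners of these isoforms the value depended on the probe set. Cox6b1 differed by -0.097 ± 0.17, Cox7a2 by 0.016 ± 0.15 and Cox6a1 by -0.093 ± 0.13. Their second probe sets differed by 0.047 for Cox6b1, 0.63 for Cox7a2 and 0.36 for Cox6a1. Cox4i1, the general form of the subunit that first meets the assembling core, differed by 0.18 ± 0.12 and its lung and oxygen-responsive form Cox4i2 by 0.089 ± 0.12. Cox8b, of muscle, differed by -0.12 ± 0.14 and Cox8c, of testis, by -0.063 ± 0.19. Cox8a, the general form, stood at 10.31 on empty-vector replicate 1, 11.67 on replicate 2 and 11.40 to 11.64 with shRNA, a difference of 0.53 ± 0.37 that was -0.15 against replicate 2 alone, while its other probe sets differed by -0.26 and 0.39. Cox7c stood at 8.72 and 6.99 on the controls and between 6.86 and 7.68 on the shRNA arrays, a difference of -0.64 ± 0.51 that was 0.23 against replicate 2 alone, and its other probe set also differed by 0.23. Cox7a2l, which joins complexes III and IV in supercomplexes, differed by -0.055 ± 0.15. None of these passed by limma (adjusted p from 0.519 to 0.973).

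**Figure D4:**
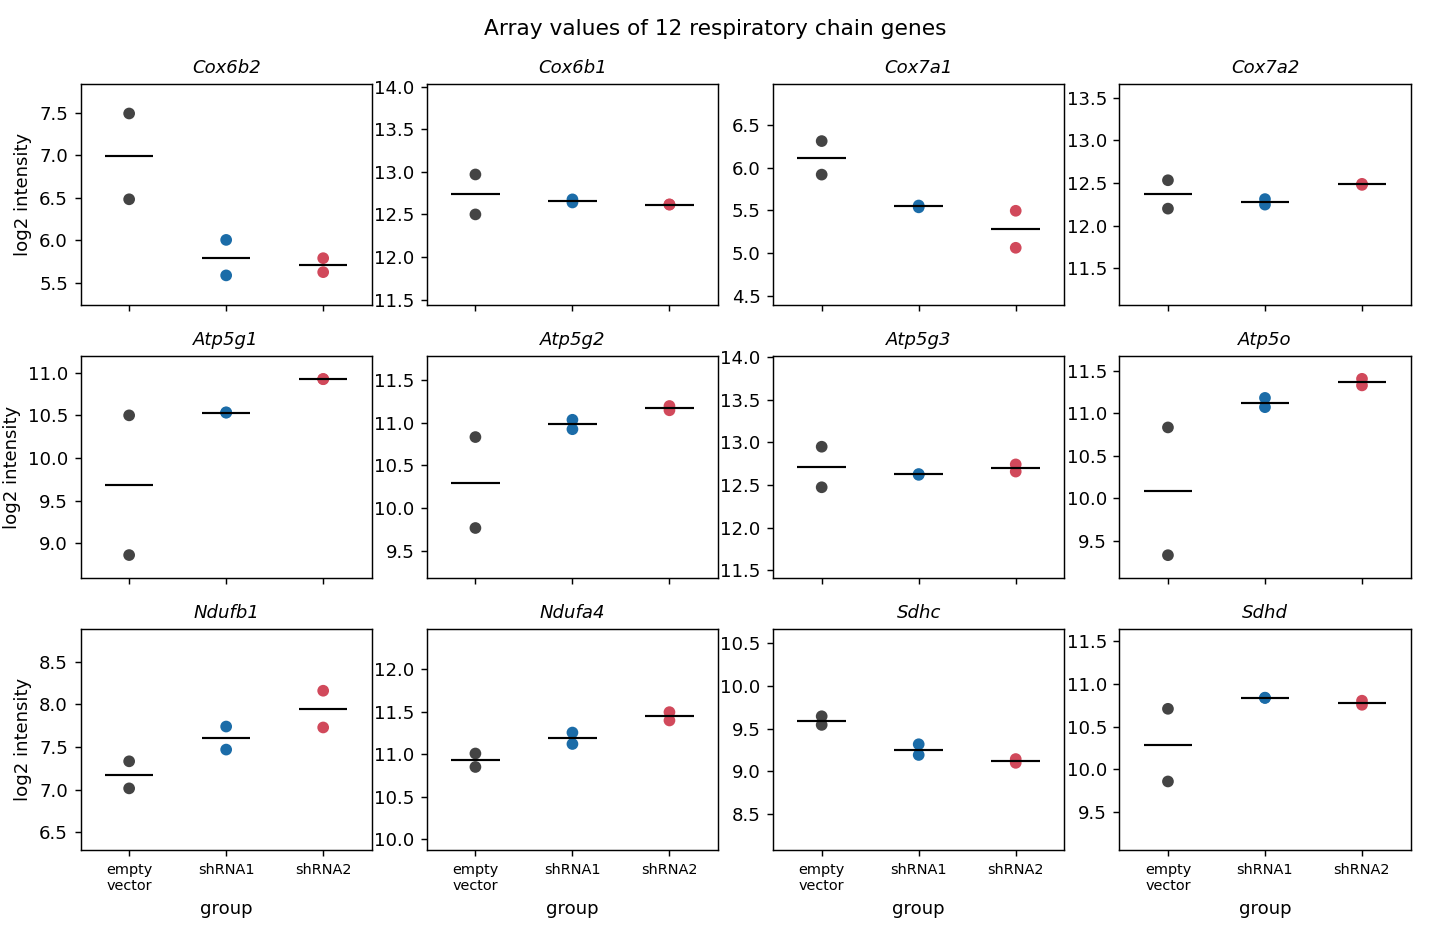
Log2 intensity (vertical axes, each 2.6 units tall) of 12 members by group (horizontal axes), with 1 point per array and black lines for group means of 2 arrays. Cox6b2, Cox7a1 and Sdhc lie lower on all 4 shRNA arrays than on both controls, while Atp5g1, Atp5g2, Atp5o and Sdhd have the lower control array on replicate 1 in each case.

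Complex V makes ATP by turning a ring of c subunits against a catalytic head. Its 17 members had a median of 0.15 with 12 positive and 0 passing by limma. Atp5o, the subunit that ties the head to the stator, had the largest positive difference of all members. It stood at 9.33 and 10.83 on the controls, 11.18 and 11.07 under shRNA1, and 11.40 and 11.33 under shRNA2. Every shRNA array was above both controls, by 1.16 ± 0.40 (limma adjusted p = 0.231), and by 0.41 without empty-vector replicate 1 (adjusted p = 0.161). Its other probe set, with the controls 0.12 apart, differed by 0.58. Atp5j, another stator subunit, stood at 10.57 and 11.44 on the controls and between 11.61 and 11.76 on the shRNA arrays, a difference of 0.70 ± 0.25 (limma adjusted p = 0.249) that was 0.26 against replicate 2 alone.

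The c subunit is made from 3 genes, Atp5g1, Atp5g2 and Atp5g3, whose products share the same mature protein after import. Atp5g1 stood at 8.86 and 10.50 on the controls, 10.53 and 10.53 under shRNA1, and 10.93 and 10.92 under shRNA2. The shRNA1 arrays were close to empty-vector replicate 2 and the shRNA2 arrays above it. The difference was 1.05 ± 0.43 (limma adjusted p = 0.302), or 0.23 against replicate 2 alone. Atp5g2 stood at 9.76 and 10.83 on the controls, 10.92 and 11.03 under shRNA1, and 11.15 and 11.20 under shRNA2, a difference of 0.78 ± 0.30 (0.272), or 0.24 against replicate 2 alone, and 0.0049 on its other probe set. Atp5g3 stood at 12.95 and 12.47 on the controls and between 12.62 and 12.74 on the shRNA arrays, inside the range of the controls, with a difference of -0.050 ± 0.17. Whether the 3 genes differ in response was not tested.

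Several probe sets of a gene did not always give the same picture. Of the 81 members 45 had 2 or more probe sets, and in 31 of these the control arrays differed in opposite directions on different probe sets of the same gene. For Ndufs8, an iron-sulphur subunit of complex I with 6 probe sets, replicate 1 minus replicate 2 ran from -1.61 to 0.48 and the difference between groups from -0.074 to 1.11. For Atp5a1, the alpha subunit of the catalytic head, the gap ran from -0.65 to 1.87 on 3 probe sets and the difference from -0.73 to 0.44. The sign of the difference depended on the probe set in 28 of the 45 genes. Ndufs8 and Atp5a1 were chosen after their values were seen.

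With shRNA1, 0 of 81 passed by limma, where 0.234% of all genes did, and 3 had an unadjusted p under 0.05, against 9.3%. The members' median was 0.050, beside -0.033 for all genes. With shRNA2, 0 passed where 2.83% of all genes did, and 13 had an unadjusted p under 0.05, against 17.8%. The members' median was then 0.12, beside -0.011 for all genes. Over the brighter 50% of all genes the medians were 0.019 with shRNA1 and 0.059 with shRNA2. Both comparisons share the empty-vector arrays. Cox6b2 differed by -1.19 with shRNA1 (limma adjusted p = 0.359) and by -1.28 with shRNA2 (0.136), Cox7a1 by -0.57 (0.504) and -0.84 (0.125), Ndufb1 by 0.43 (0.638) and 0.77 (0.150), and Ndufa4 by 0.26 (0.677) and 0.52 (0.165).

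The comparison of the shRNAs with each other does not use the control arrays in its means. It gave 0 members by limma, as for all genes (0%), and 0 at an unadjusted p under 0.05, where 4.89% of all genes had one. All 81 differences, shRNA1 minus shRNA2, lay between -0.39 and 0.27. Their median was -0.063, beside -0.021 for all genes and -0.035 for the brighter 50% of all genes. The 95% interval lay within ±1 for 70 members and within ±0.5 for 35. The differences were small and mostly to the side of shRNA2: 58 were negative, or 71.6%, against 55.0% of all genes. In 34 members, or 42.0%, both shRNA2 arrays lay above both shRNA1 arrays, against 23.9%, and in 7 both shRNA1 arrays lay above, against 17.7%. The largest were Atp5g1 at -0.39 ± 0.50, Ndufb1 at -0.34 ± 0.22 and Uqcc1 at -0.32 ± 0.20 on the one side and Cox7a1 at 0.27 ± 0.22, Cox7a2l at 0.22 ± 0.17 and Sdhc at 0.13 ± 0.15 on the other (limma adjusted p = 0.999 for each). The spread of the empty-vector arrays enters these errors, since the fit assumes 1 spread for all groups.

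Values of 2 other families of housekeeping genes are set beside these. The 74 mitochondrial ribosome protein genes had a median difference of 0.26 with 58 positive and 0 passing by limma, and 63 of them were lower with shRNA1 than with shRNA2. The 38 proteasome subunit genes had a median of 0.18 with 28 positive and 0 passing, and 32 lower with shRNA1 than with shRNA2. Psmc3ip, a recombination gene whose symbol begins like a proteasome subunit's, was left out of the count after its values were seen: it differed by 1.10 ± 0.16 (limma adjusted p = 0.0365) and would have been the only one to pass. Whether respiratory chain genes differ from these was not tested.

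The rest of the pathway, from fixed lists, also held no gene that passed by limma for both shRNAs together: 0 of 6 further chain genes, 0 of 31 assembly factors, 0 of 18 carriers, 0 of 18 genes of the TCA cycle and pyruvate dehydrogenase, 0 of 21 regulators of mitochondrial gene expression and 0 of 23 import genes. Their unadjusted p was under 0.05 in 1, 6, 5, 6, 4 and 3 genes, in that order, where 16.7% of all genes had one. Their medians were 0.33, 0.24, 0.15, 0.41, -0.023 and 0.21. Cyc1, the cytochrome subunit of complex III, differed by 0.41 ± 0.14 and Cycs, cytochrome c, by 0.30 ± 0.15. The smallest adjusted p of the TCA cycle genes was that of Suclg2, a subunit of succinyl-CoA ligase. It stood at 5.27 and 6.45 on the controls, 7.46 and 7.28 under shRNA1, and 7.97 and 7.77 under shRNA2, all above the controls, by 1.76 ± 0.33 (adjusted p = 0.0630). Fh1, fumarase, differed by 0.88 ± 0.17 (adjusted p = 0.0682). With shRNA2 alone Fh1 rose, by 1.11 ± 0.20 (limma adjusted p = 0.0485), the only gene of these 6 lists to pass for a single shRNA, and with shRNA1 alone it differed by 0.65 ± 0.20 (adjusted p = 0.363).

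Among the regulators Ppargc1b, a coactivator of genes of oxidative metabolism, stood at 8.09 and 8.37 on the controls, 7.50 and 7.60 under shRNA1, and 7.40 and 7.41 under shRNA2. Every shRNA array was below both controls, with a difference of -0.75 ± 0.14 (limma adjusted p = 0.0654). Without empty-vector replicate 1 the difference was 1.17 for Suclg2 and -0.89 for Ppargc1b, and without replicate 2 it was 2.35 and -0.61. Tfb1m, a methyltransferase of the mitochondrial ribosome's RNA, differed by -0.41 ± 0.15. The assembly genes Cox20 and Ttc19 differed by 0.71 ± 0.16 and -0.72 ± 0.22, the glycerol phosphate dehydrogenase Gpd2 and the pyrimidine enzyme Dhodh by -0.49 ± 0.13 and 0.55 ± 0.20, and the import genes Tomm40 and Timm10 by 0.40 ± 0.13 and -0.37 ± 0.12 (limma adjusted p from 0.103 to 0.257 for these 7 genes). Against empty-vector replicate 2 alone, Ttc19 differed by -0.44, Dhodh by 0.28, Tfb1m by -0.26 and Cycs by 0.19.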

How the data were processed

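The authors deposited an intensity per probe set (22690 of them, 6 arrays) that came from RMA, per the submitters' processing notes. The version of RMA is not given in the sources used here. Intensities between 4.96 and 20615 show a linear scale, so log2 was taken, with no pseudocount and no further normalization. Because RMA equalizes the arrays' distributions, a global shift in RNA content is invisible. Probe sets with exactly 1 gene in the platform annotation were used, 64 Affymetrix controls were left out, and the probe set with the highest mean stood for a gene, which gave 12393 genes from 20380 probe sets. No gene was filtered out. Differences were tested with limma 3.58.1 in R 4.3.3 (lmFit and eBayes, 1 fit of 3 groups, 3 residual and 2.91 prior degrees of freedom). Tests were two-sided, with Benjamini-Hochberg adjustment over all 12393 genes and a threshold of 0.05. The fit was first checked on data drawn with known differences. Those differences were larger than that of any member, and all arrays of a gene were drawn with the same spread. The check therefore does not show whether differences of the members' size would be found. Members and lists were chosen with earlier results of these data known. Named members are those with the smallest p in each complex, the largest differences, the largest gaps between the control arrays, and the isoform list. Other members are said to be chosen after their values were seen. From each further mitochondrial list the genes with the smallest p are named. Proteasome and mitochondrial ribosome genes were taken by symbol. Leaving out dim genes, other probe set choices, other scaling, other eBayes settings, a replicate block and leaving out each array were the alternatives. Figures were drawn with Python 3.11.15 and matplotlib 3.10.9. The number of arrays limits the precision.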

Additional observations from a re-analysis of the deposited data

How the results depend on the processing

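No member passed the threshold by limma under any alternative run except leaving out empty-vector replicate 2; the smallest adjusted p for both shRNAs otherwise ran from 0.0641 to 0.405. Leaving out 1 array at a time gave 0 to 27 members for both shRNAs, 0 to 23 for shRNA1 and 0 to 30 for shRNA2, and 0 for the shRNAs against each other. The members' median, 0.081, was 0.089 with the mean of all probe sets, 0.098 without probe sets ending in _x_at, 0.049 after quantile normalization and 0.071 with arrays centred on their median. It ran from 0.040 to 0.100 with 1 array left out, that of complex I from 0.026 to 0.089, complex II from 0.044 to 0.56, complex III from 0.11 to 0.38 and complex IV from -0.23 to 0.067. Cox7a2l (0.083) and Cox6a1 (0.13) turned sign with the mean of all probe sets and Cox7a2 (-0.029) after quantile normalization. With 1 array left out, signs turned for Cox7c (-1.50 to 0.23), Ndufa5 (-1.12 to 0.28), Ndufb7 (-0.94 to 0.28), Cox8a (-0.15 to 1.21), Cox6b1 (-0.33 to 0.14), Atp5g3 (-0.29 to 0.19), Cox8c (-0.25 to 0.12), Cox7a2l (-0.21 to 0.10), Cox6a1 (-0.19 to 0.00075) and Cox7a2 (-0.15 to 0.18). The cause was not tested. Over all genes 264 passed for both shRNAs, and with single arrays left out 3 to 3121.

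With the replicate number as a block, 0 members passed in any comparison and the median stayed at 0.081. Rad21 then passed, at an adjusted p of 0.0166, and 288 of all genes did. The labels do not say that a shared number marks a shared animal or day, and 2 numbers do not settle it. Over genes, replicate 1 minus replicate 2 correlated at 0.20 between empty vector and shRNA1, 0.15 between empty vector and shRNA2 and 0.58 between the shRNAs.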

Other observations

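Probe sets that the annotation gives to several genes were not among the members. The 2 sets shared by Ndufb4 and its copies Ndufb4b and Ndufb4c differed by 0.24 and 0.55 between both shRNAs and empty vector, with empty-vector replicate 1 minus replicate 2 at -0.55 and -1.22. The set shared by Ndufa11 and Ndufa11b differed by 0.35 (control gap -0.63), and that shared by Ndufs6 and Ndufs6b by -0.11 (control gap 0.56). These values cannot be assigned to 1 gene of each set.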
